A study of Homo sapiens with 4 samples.

Results

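The genes described here are 10 genes of the endoplasmic reticulum (ER) stress response: HSPA5, PDIA6, HSP90B1, XBP1, ATF4, DDIT3, ATF6, HERPUD1, DDIT4 and TRIB3. The RNA modification N6-methyladenosine (m6A) was mapped by antibody pull-down in GES-1, a human gastric epithelial cell line, given chenodeoxycholic acid (CDCA, a primary bile acid) at 100 µM for 48 h or left untreated as control. A gene's peaks were those with a summit inside its hg19 span, given to the nearest 1 kb, and they numbered 17 of 52188 peaks in the CDCA list and 21 of 63093 in the control list. The comparison asks which m6A sites differ between treated and untreated cells. The series held 4 samples, and the peak lists of the CDCA and control immunoprecipitation libraries, made from RNA freed of ribosomal RNA, were used, while the input libraries and the identity of the cell line were not examined. With 1 library per condition there is no replicate check, and no p-value was computed. Peaks were selected on summit position. The genes were chosen by role with the listings and −log10 q of both libraries in view, so counts of peaks present or missing are descriptions.

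Secretory proteins fold in the ER. When unfolded proteins build up, sensors in the ER membrane, among them IRE1, PERK and ATF6, start the unfolded protein response. IRE1 splices the XBP1 messenger RNA, PERK signalling raises translation of ATF4, and ATF6 moves to the Golgi and is cut to free a transcription factor. Together they raise chaperones, ER-associated degradation and, under lasting stress, pro-apoptotic factors. Bile acids at high levels are known to stress the ER of some epithelial cells. m6A is laid down on messenger RNA mostly near the stop codon, in the 3′ untranslated region and in long internal exons.

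A regulatory element known from genes of this response was searched for in their promoters. The ER stress response element (ERSE), bound by ATF6 and XBP1 together with NF-Y, is CCAAT, then 9 bases of any kind, then CCACG. Promoter windows of 300 bases (250 before and 50 after a transcript start) from RefSeq, GRCh38.p14, were available for all 10 genes. These letters, on either strand, occurred in the windows of HSPA5, PDIA6, HSP90B1 and XBP1, which is 4 of 10 genes against 25 of 27305 genes with a window (0.0916%). The related ERSE-II, which is ATTGG, then any base, then CCACG, occurred in HERPUD1 and in 19 of 27305 genes (0.0696%). Known targets of the response were chosen here, so these matches describe the set and say nothing of binding in GES-1 cells.

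The windows with a match are shown because they hold the exact letters of an element known from this response. The windows of the other members held no exact match. They lie at chr9:125241294-125241593 (HSPA5, minus strand), chr2:10812736-10813035 (PDIA6, minus strand, the second of 2 windows), chr12:103930160-103930459 (HSP90B1, plus strand), chr22:28800520-28800819 (XBP1, minus strand, the first of 2 windows) and chr16:56931892-56932191 (HERPUD1, plus strand). These are GRCh38.p14 positions and cannot be set against the hg19 peak positions. Each is written 5′ to 3′ along the gene, and capitals mark matches to a motif.
HSPA5: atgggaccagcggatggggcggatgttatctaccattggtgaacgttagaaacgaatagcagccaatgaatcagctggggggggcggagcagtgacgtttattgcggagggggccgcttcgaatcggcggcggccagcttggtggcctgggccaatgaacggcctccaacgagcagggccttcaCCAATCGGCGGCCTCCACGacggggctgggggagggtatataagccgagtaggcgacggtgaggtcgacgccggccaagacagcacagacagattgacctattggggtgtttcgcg
PDIA6: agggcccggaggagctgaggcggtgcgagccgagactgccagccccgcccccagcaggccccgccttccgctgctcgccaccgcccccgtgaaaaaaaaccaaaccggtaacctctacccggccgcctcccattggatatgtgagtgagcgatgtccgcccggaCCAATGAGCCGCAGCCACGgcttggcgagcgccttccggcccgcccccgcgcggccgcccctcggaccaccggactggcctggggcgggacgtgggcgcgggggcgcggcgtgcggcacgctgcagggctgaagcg
HSP90B1: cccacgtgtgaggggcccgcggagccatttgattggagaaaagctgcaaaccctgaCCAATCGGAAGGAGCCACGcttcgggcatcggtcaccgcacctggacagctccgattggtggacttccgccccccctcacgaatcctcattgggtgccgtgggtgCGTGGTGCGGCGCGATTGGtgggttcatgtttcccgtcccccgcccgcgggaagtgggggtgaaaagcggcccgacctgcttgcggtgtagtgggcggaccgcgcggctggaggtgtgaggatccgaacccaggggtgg
XBP1: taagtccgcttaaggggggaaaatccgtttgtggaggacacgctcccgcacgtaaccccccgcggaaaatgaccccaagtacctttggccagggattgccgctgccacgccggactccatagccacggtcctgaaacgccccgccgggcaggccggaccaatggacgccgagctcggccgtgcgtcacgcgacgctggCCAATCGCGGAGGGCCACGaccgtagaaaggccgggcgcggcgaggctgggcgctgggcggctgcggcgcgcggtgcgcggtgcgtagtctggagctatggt
HERPUD1: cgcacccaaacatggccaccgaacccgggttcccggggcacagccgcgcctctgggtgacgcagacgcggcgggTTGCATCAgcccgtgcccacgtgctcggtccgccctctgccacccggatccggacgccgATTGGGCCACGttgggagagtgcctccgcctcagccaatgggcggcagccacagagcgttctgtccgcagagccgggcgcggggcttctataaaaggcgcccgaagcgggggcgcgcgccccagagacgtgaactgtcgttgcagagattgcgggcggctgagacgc

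The ERSE match began 66 bases before the transcript start in HSPA5, 86 in PDIA6 and 52 in XBP1. HSP90B1 held 2 matches, at 194 bases on the gene's strand and at 89 bases on the opposite strand. In HERPUD1 the ERSE-II match began 117 bases before the start. A core of the amino acid response element bound by ATF4 and its partners, TGATGNAA, stood 176 bases before the start of HERPUD1 on the opposite strand and in the windows of 4.46% of all genes. No match overlapped another, and TGACGTGG, a core bound by XBP1 and ATF6, was in none of the 10 genes' windows and in 0.927% of all genes. The windows of ATF4, DDIT3, ATF6, DDIT4 and TRIB3 held no exact match to the 4 motifs searched. Such a search misses near matches, so it does not show that an element is lacking. The DDIT3 windows, for example, hold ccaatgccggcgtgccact, which differs from the ERSE letters in its last base.

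Of the 10 genes, 8 had a listed m6A peak in at least 1 library. CDCA peaks were listed for 6 genes and control peaks for 6, and 4 genes (ATF6, HERPUD1, DDIT4 and TRIB3) had peaks in both. HSPA5 and PDIA6 had peaks in the CDCA list alone, HSP90B1 and DDIT3 in the control list alone, and XBP1 and ATF4 in neither. A peak counts as shared if at least 1 bp of it lies in a peak of the other library. By this measure 13 of the 17 CDCA peaks were unshared, beside 77.8% of all CDCA peaks, and 17 of the 21 control peaks, beside 81.8% of all control peaks, so the genes' shares lay near those of the lists. The shared part was 23.5% of CDCA peaks (95% interval 6.81 to 49.9, exact Clopper-Pearson) and 19.0% of control peaks (5.45 to 41.9). These intervals cover counting error only, and peaks of 1 gene are not independent.

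The authors' lists give each peak a fold enrichment (summit height over local background), a height and a −log10 q, and no listed peak had a fold below 6. Strong peaks here have a −log10 q of 100 or more. Of the genes' peaks, 6 of 17 in the CDCA list and 5 of 21 in the control list were strong, beside 7.90% and 7.77% of all peaks, and they came from 7 genes. The −log10 q of these peaks was known when the genes were chosen, so nothing is read from those shares. All 11 strong summits lay between 62.4% (DDIT4, control) and 98.8% (PDIA6, CDCA) of the way from the 5′ to the 3′ edge. Of these, 8 lay in the 20% of the span next to the 3′ edge. A site listed in both libraries counts once for each, and the share was not computed for other genes. Of the strong peaks, 3 of 6 in the CDCA list and 2 of 5 in the control list had no partner, beside 8.76% and 12.4% of all strong peaks. Nothing is read from that gap either, since the leading CDCA peaks without a partner were known too. The lists name no gene or strand, so a peak is given to a gene by position alone.

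**Figure D1:**
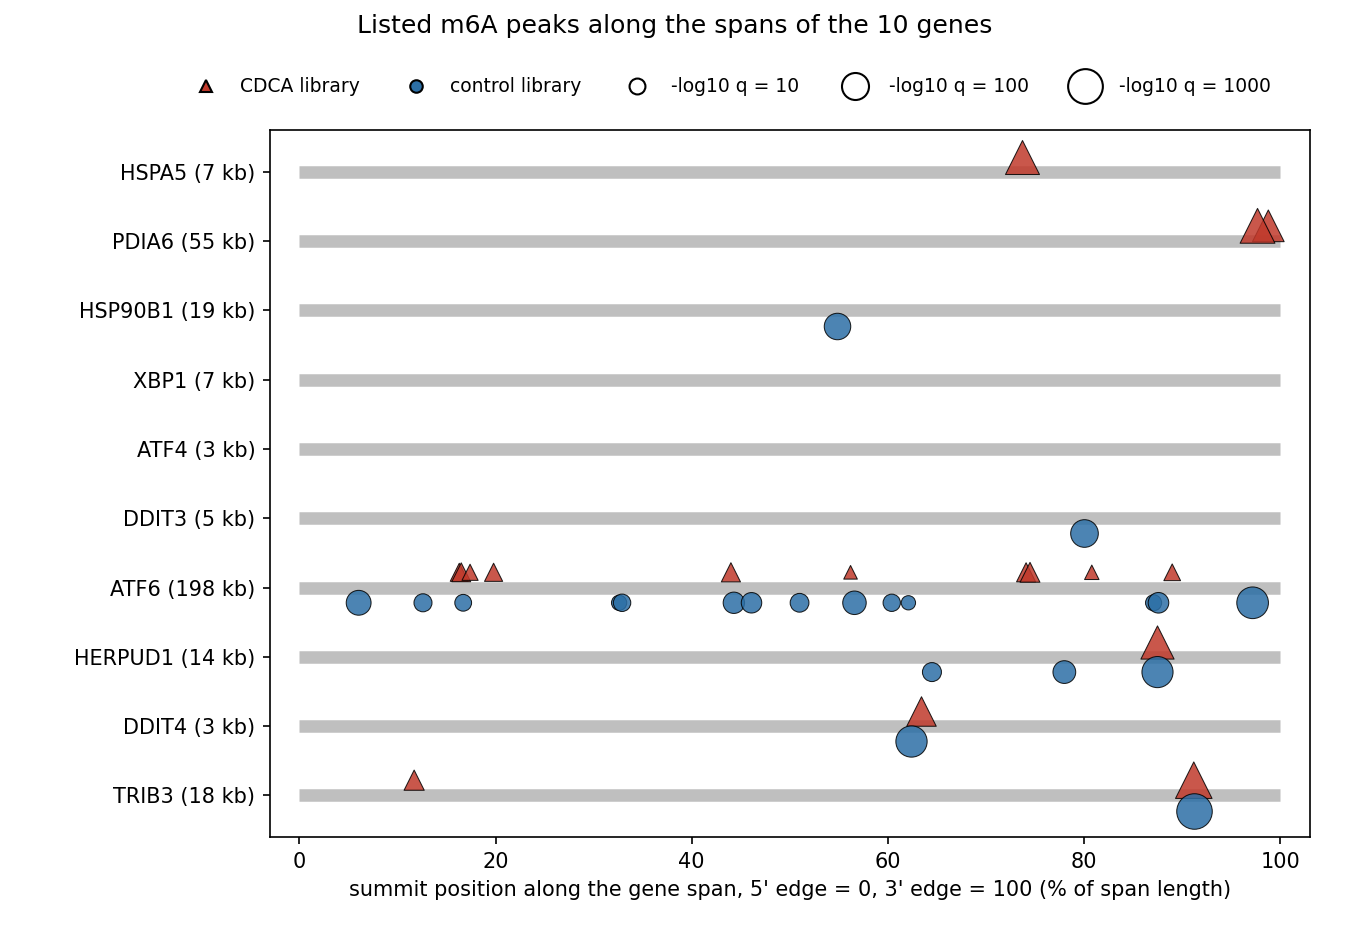
Summits of all listed peaks of the 10 genes along their hg19 spans, from the 5′ edge (0) to the 3′ edge (100), in percent of span length. Triangles above each bar are CDCA peaks, circles below are control peaks, and larger symbols have a higher −log10 q. The strong peaks sit toward the 3′ side, while ATF6 carries small peaks along its whole span.

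HSPA5 encodes BiP, the main Hsp70 chaperone of the ER lumen, which also holds the stress sensors inactive. Its CDCA peak lay on chromosome 9 from 127998619 to 127999032 (hg19), with the summit 1.84 kb from the 3′ edge of the span. It had a fold enrichment of 10.8, a −log10 q of 778 and a height of 1217. The 95% Poisson interval of the height was 1163 to 1273, if each step of the height scale is 1 fragment, and such intervals, given in parentheses after a height, again cover counting error only. Few CDCA peaks stood above it in significance (0.960% of the list), and its local background of 112 was exceeded by 0.211% of the list. At this background a summit had to reach a height of 677 for a fold of 6. The control list had no peak in the HSPA5 span, and its nearest peaks lay 18519 and 31051 bp from the CDCA peak. Each list numbers its peaks along the chromosome and skips numbers, and between those 2 control peaks 4 numbers were skipped. Where in that stretch the unlisted peaks lay is unknown, so a skipped number does not place one on HSPA5.

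PDIA6, a protein disulfide isomerase that also damps IRE1 signalling, had 2 CDCA peaks side by side at the 3′ edge of its span on chromosome 2. The first, from 10924086 to 10924400, had a fold of 7.20 on a height of 2122 (2051 to 2196) and a −log10 q of 1026. Its background of 294 was among the highest of the CDCA list, exceeded by 0.0345% of peaks, and a fold of 6 took a height of 1769 there. The second, from 10923496 to 10923833, had a fold of 8.45, a height of 687 (646 to 729), a −log10 q of 374 and a background of 80.4. Both joined a high −log10 q to a modest fold: 70.7% and 51.6% of all CDCA peaks had a higher fold. The control list had no peak in the PDIA6 span, its nearest peak was 115895 bp from the closer of the CDCA peaks, and 4 control numbers were skipped between the listed neighbours. In the RefSeq gene table (GRCh38.p14) the PDIA6 gene overlaps ATP6V1C2, a proton pump subunit gene, so peaks in this region may belong to either transcript.

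HSP90B1, the Hsp90 chaperone of the ER, showed the opposite listing. Its single peak was in the control list, on chromosome 12 from 104333301 to 104333543, and had a fold of 7.18, a height of 179 (155 to 205) and a −log10 q of 87.0. The summit stood at 54.8% of the span, away from the 3′ edge. The CDCA list had no peak there, its neighbours lay 24196 and 31352 bp away, and 5 CDCA numbers were skipped between them. For the 3 folding factors HSPA5, PDIA6 and HSP90B1, no listed peak was thus common to both libraries, and skipped numbers stood beside each of their peaks in the other list. Such skipped numbers are frequent: they stood beside 97.5% of the 361 strong CDCA peaks without a partner and beside 92.1% of 607 such control peaks.

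XBP1 and ATF4, the transcription factors made through splicing by IRE1 and through PERK signalling, had no listed m6A peak in either library. For XBP1 the nearest CDCA peaks ended 7623 bp and began 9175 bp from its span on chromosome 22 (29.190 to 29.197 Mb), and their numbers were consecutive. No CDCA number was therefore skipped over XBP1. In the control list 1 number was skipped between neighbours 7623 and 3017 bp away. ATF4 (39.916 to 39.919 Mb) had 3 skipped numbers in the CDCA list and 4 in the control list, where the neighbour on its 3′ side was 517689 bp away. A peak over ATF4 below the listed fold can therefore not be told from none.

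ATF6, the sensor that becomes a transcription factor, held 24 of the 38 peaks, 10 in the CDCA list and 14 in the control list. Its span of 198 kb is by far the longest, and it gave 5.05 CDCA and 7.07 control peaks per 100 kb. The ATF6 peaks were mostly weak. In the CDCA list the fold ran from 6.12 to 12.3 (median 8.91) and the −log10 q from 7.26 to 19.9 (median 14.4). The median fold of that whole list was 8.63 and its median −log10 q 14.4. The most significant CDCA peak of ATF6 ran from 161883301 to 161883566, with a fold of 12.3 and a height of 20.5. In the control list the 13 weaker peaks had a fold of 6.79 to 20.2 (median 8.70) and a −log10 q of 7.92 to 58.0 (median 14.2), against list medians of 9.67 and 19.9. Of the ATF6 peaks, 3 of 10 in the CDCA list and 8 of 14 in the control list stood at the lowest background of their list. Of all peaks, 36.7% and 32.8% did, so the ATF6 share was the higher one in the control list only.

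The strong ATF6 peak was a control peak near the 3′ edge, on chromosome 1 from 161928365 to 161928683. It had a fold of 15.3, a height of 472 (433 to 513), a background of 30.0 and a −log10 q of 371. The nearest CDCA peaks lay 16007 and 16676 bp away, and 3 CDCA numbers were skipped between the neighbours. Elsewhere in ATF6 the libraries shared 1 pair, a CDCA peak from 161768607 to 161768868 and a control peak from 161768833 to 161769032. They met over 36 bp, with summits 317 bp apart, and had folds of 9.10 in CDCA and 8.70 in control cells. A further 3 CDCA peaks ended or began 499, 437 and 449 bp from a control peak without touching it. Between the first and the last listed ATF6 peak, 4 of 14 CDCA numbers and 8 of 22 control numbers were skipped.

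**Figure D2:**
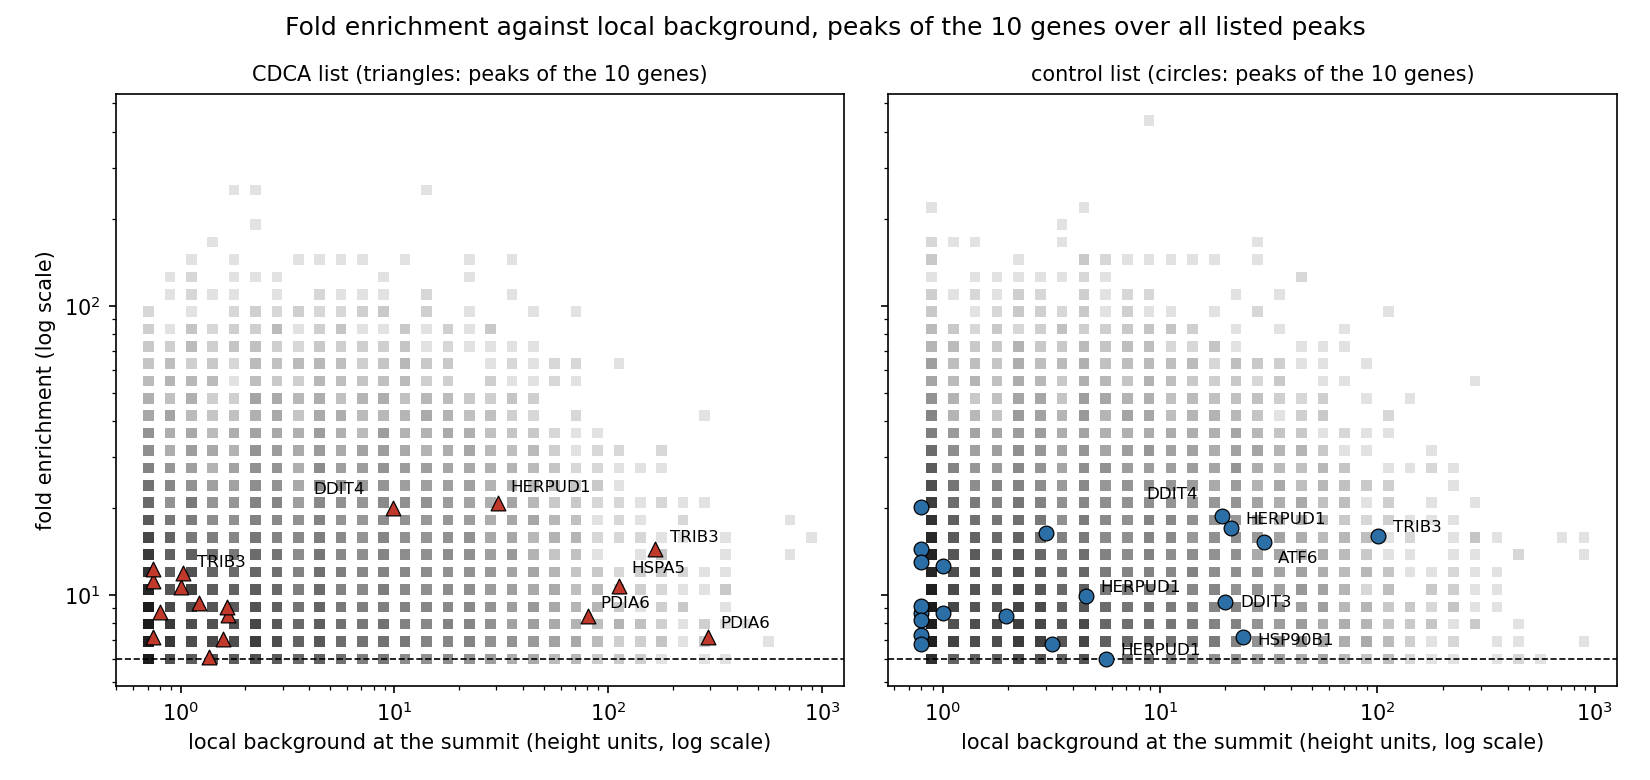
Fold enrichment against local background at the summit, both on log scales, for the CDCA list (left) and the control list (right). Grey squares count all listed peaks, darker for more, coloured symbols are peaks of the 10 genes (weaker ATF6 peaks unlabelled), and the dashed line marks a fold of 6. HSPA5 and PDIA6 lie at backgrounds of 80.4 to 294 with folds of 7.20 to 10.8, and the weaker ATF6 peaks lie at backgrounds of at most 1.66 in the CDCA and 3.20 in the control list.

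HERPUD1, a membrane protein of ER-associated degradation and a known ATF6 and XBP1 target, had a strong peak in both libraries that matched over 94.0% of the longer peak. It lay on chromosome 16 from 56977075 to 56977426 in CDCA and from 56977076 to 56977406 in control cells, with summits 9 bp apart. The fold was 20.9 in CDCA and 17.1 in control cells, the highest fold of the genes' CDCA peaks. Its height was 656 (617 to 698) in CDCA and 378 (343 to 415) in control cells, and its −log10 q 602 and 316. The local background was 30.4 in CDCA and 21.2 in control cells. The control list held 2 weaker peaks farther from the 3′ edge, from 56973994 to 56974193 (fold 6.01, −log10 q 16.9) and from 56975860 to 56976110 (9.95 and 35.9). The first is the lowest fold among the genes' peaks, and the lists show nothing below 6. In the CDCA list 3 numbers were skipped around their positions.

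DDIT4 encodes REDD1, a stress-induced brake on the growth kinase mTORC1 and an ATF4 target. Its peak on chromosome 10 ran from 74034631 to 74035094 (464 bp) in CDCA and from 74034350 to 74035107 (758 bp) in control cells, so the CDCA peak lay wholly inside the control peak. The fold was nearly the same, 19.99 in CDCA and 18.8 in control cells. The height was 215 (193 to 239) in CDCA and 378 (343 to 415) in control cells, and the background 9.80 and 19.2, so both values were lower in the CDCA list. Heights are on each library's own scale, and the way they were scaled is unknown. The sample that supplied the background is not given in the sources used here, so these values are not a measure of DDIT4 RNA. RNA was pooled over the cells of a cell line, so a difference in some cells cannot be told from a difference in all of them.

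TRIB3, a pseudokinase induced by ATF4 and DDIT3 that restrains AKT, carried the strongest m6A peak of the genes in both libraries. It lay on chromosome 20 from 376991 to 377715 in CDCA and from 376859 to 377744 in control cells, with summits 1 bp apart and 1.59 kb from the 3′ edge. The fold was 14.5 in CDCA and 16.0 in control cells. The height was 2427 (2350 to 2505) in CDCA and 1634 (1562 to 1710) in control cells, the background 166 and 101, and the −log10 q 1842 and 1308. Height and background were thus both higher in the CDCA list for TRIB3 and both lower for DDIT4. A single scale factor between the libraries could change these directions, but not the gap between the genes. Only 0.226% of CDCA peaks and 0.399% of control peaks had a higher −log10 q. A weak second TRIB3 peak was in the CDCA list alone, from 363036 to 363253, at 11.7% of the span from the 5′ edge, with a fold of 11.9, a height of 23.0 and a −log10 q of 21.2. Another CDCA peak had its summit 300 bp outside the 5′ edge (−log10 q 11.8) and was not counted.

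DDIT3 encodes CHOP, the transcription factor tied to cell death under lasting ER stress. Its control peak lay on chromosome 12 from 57910400 to 57911317, 918 bp long, the longest of the genes' peaks. It had a fold of 9.45, a height of 198 (173 to 225) and a −log10 q of 118, and at its background a fold of 6 took a height of 125. In the CDCA list a peak from 57909839 to 57910342 ended 58 bp before it. That peak's summit stood 71 bp outside the 3′ edge of the span, so it was not counted, and it had a fold of 6.53, a height of 122 and a background of 17.8. DDIT3 thus had control peaks alone by a narrow margin of position. In the RefSeq gene table DDIT3 overlaps MARS1, the gene of a tRNA synthetase, so either peak may belong to MARS1.

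**Figure D3:**
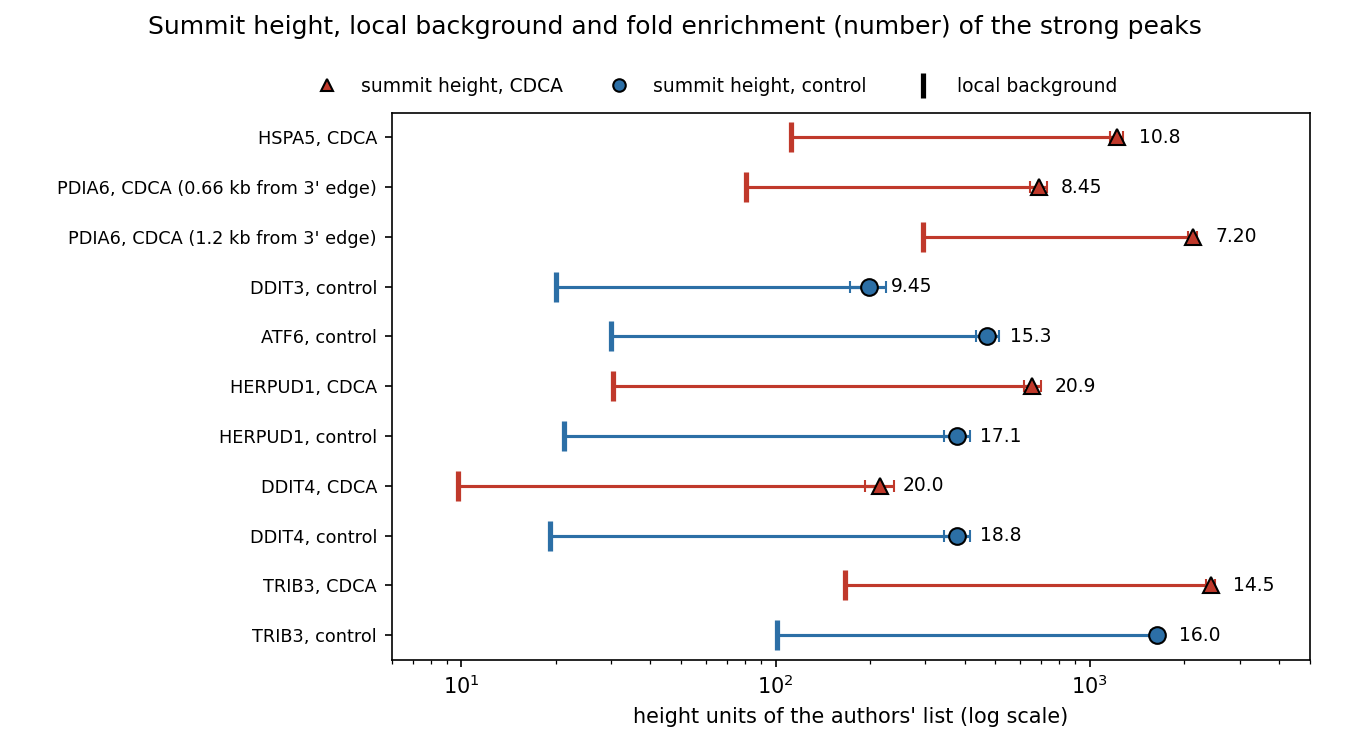
Strong peaks of the 10 genes, with summit height (symbol, with its 95% Poisson interval) and local background (vertical mark) in the height units of each list, on a log scale. The number beside each symbol is the fold enrichment. TRIB3 stands highest in both libraries, and height and background are both lower in the CDCA list for DDIT4 and both higher for HERPUD1 and TRIB3.

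Where peaks of both libraries overlapped, their fold enrichment was much alike. The log2 ratio of fold, CDCA over control, was 0.29 for HERPUD1, 0.09 for DDIT4, -0.14 for TRIB3 and 0.06 for the ATF6 pair. The ATF6 peaks met over 36 bp with summits 317 bp apart, so they may not be the same site. Over all 11870 pairs of overlapping peaks its median was -0.11, and the middle 50% of pairs ran from -0.66 to 0.40, so all 4 ratios lay inside that range. None of the 4 pairs differed by 2-fold or more, beside 8.98% of all pairs at least 2-fold higher and 15.2% at least 2-fold lower in the CDCA list. Each fold is set against the local background of its own list, whose source sample is not given. A ratio thus describes 2 lists and is not a measured change in methylation.

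Local background varied more among the 4 pairs than fold did. Its log2 ratio, CDCA over control, was 0.72 for TRIB3, 0.52 for HERPUD1, 1.04 for ATF6 and -0.97 for DDIT4. The middle 50% of all pairs ran from -0.68 to 0.32 with a median of -0.10, so all 4 ratios lay outside it, 3 above and 1 below. Among all pairs 13.5% had a higher ratio than TRIB3, 17.8% than HERPUD1 and 7.99% than ATF6, and 16.7% had a lower one than DDIT4. The ATF6 pair was the only one of the 4 at least 2-fold higher in the CDCA list, as were 8.85% of all pairs, and none was at least 2-fold lower, as were 15.8%. The control peak of the ATF6 pair stood at the lowest background of its list, which sets a floor under that value.

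**Figure D4:**
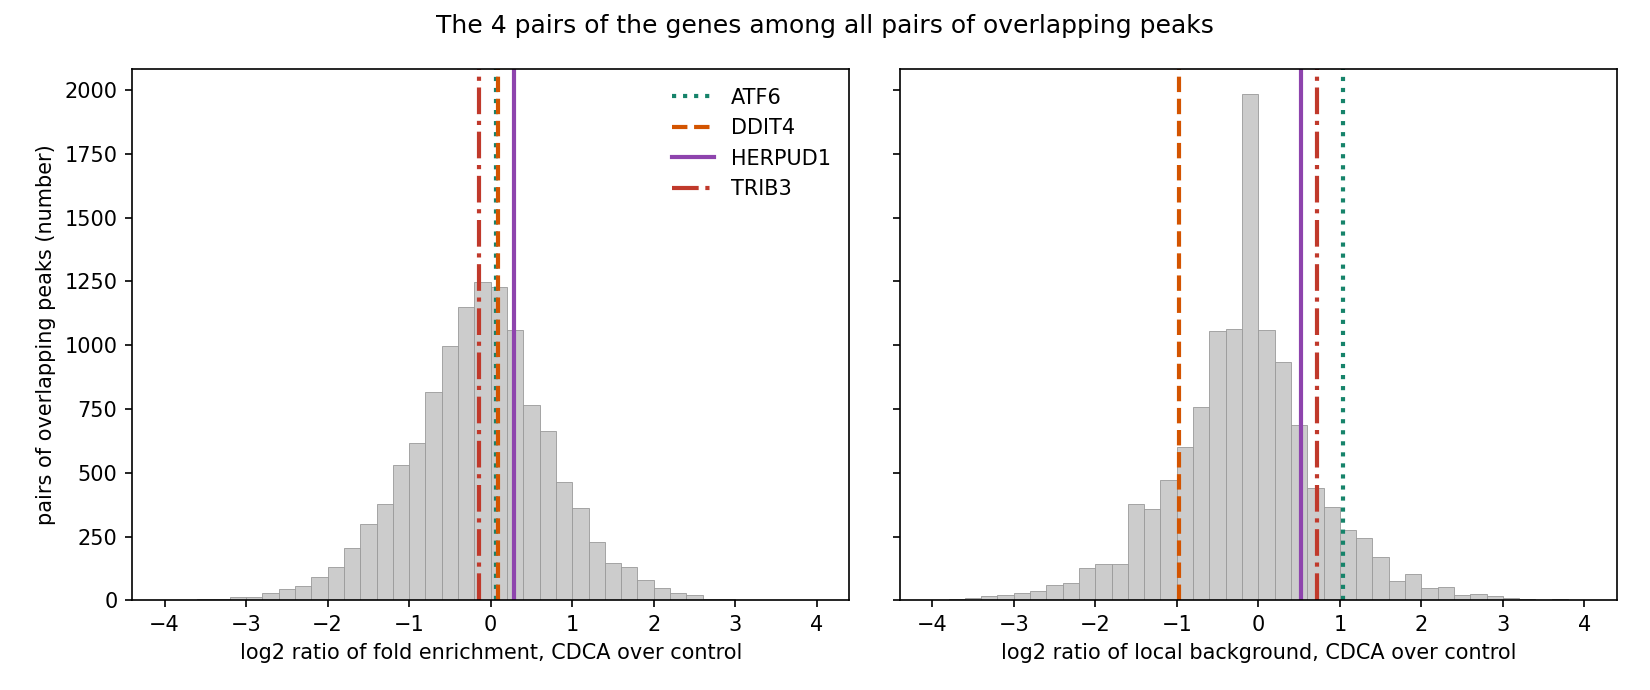
Distribution over 11870 pairs of overlapping peaks of the log2 ratio, CDCA over control, of fold enrichment (left) and of local background (right), in bins of 0.2. Vertical lines mark the pairs of ATF6, DDIT4, HERPUD1 and TRIB3, which lie between -0.14 and 0.29 for fold and between -0.97 and 1.04 for background.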

How the data were processed

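m6A immunoprecipitation libraries of GES-1 cells were analysed, 1 per condition. MACS2 2.1.0, TopHat2 2.0.13 and hg19 stand in the submitters' processing notes without roles. Per the file headers, the deposited lists give each peak's position and summit, its height (a signal), −log10 of a p-value and of a q-value, and fold enrichment, a ratio. Scaling, thresholds and the background sample were not given in the sources used here. Peaks were listed by the authors per library, not pooled.

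Spans and strands came from the member rule, and the genes and lists were chosen with earlier results of these data known. For each gene the text gives every strong peak, every shared pair and the most significant unshared peak. Background was computed as (height + 1) / fold − 1. Read depth is unknown. Heights were whole multiples of 0.640 (CDCA) and 0.862 (control) for 100% of peaks within 0.02 steps, and Poisson intervals count such steps. Simulated lists were used to test the code for overlap and skipped numbers. Motifs were searched as exact letters in RefSeq windows. Other genes of the pathway were not placed, since an hg19 annotation was not used here. Alternatives covered peak thresholds, list length, span edges, overlap rules and scaling. Tools were Python 3.11.15, scipy 1.17.1, pandas 2.3.3, numpy 2.4.6 and matplotlib 3.10.9.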

Additional observations from a re-analysis of the deposited data

How the results depend on the processing

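The number of shared peaks was 3 or 4 in each list under every alternative that was run, and only the ATF6 pair was lost. The number of listed peaks (17 in CDCA, 21 in control) and of unshared peaks (13 and 17) depended on weak peaks. Keeping a −log10 q of at least 20 left 7 CDCA and 12 control peaks, of which 4 and 9 were unshared. At a −log10 q of at least 50, 6 and 7 peaks were left, 3 and 4 of them unshared. With a fold of at least 10, 8 and 9 were left, 5 and 6 unshared. Without ATF6, an alternative chosen after seeing the data, each list held 7 peaks, 4 of them unshared. Equal list lengths, widened spans and stricter overlap kept these counts within 1.5 times.

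The median log2 ratio of fold over the pairs, CDCA over control, was 0.08, and 0.09 under either stricter overlap or without ATF6. It was 0.61 from height, 0.51 from −log10 q and 0.19 after subtracting the median of all pairs. Over all 11870 pairs the median was -0.24 from height and -0.30 from −log10 q. The median log2 ratio of background was 0.62, and 0.52 under either stricter overlap or without ATF6. It was 0.72 with the control background scaled to the same lowest level. No paired analysis was possible because each condition had 1 library. Absence of a peak from a list is limited by the fold of 6 below which none was listed, which takes taller summits where background is high.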
